A study of Mus musculus with 15 samples.

Results

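Motile cilium and axoneme genes were taken as the genes on the array whose symbol begins with Dnah, Dnai, Dnal, Tekt, Cfap, Rsph, Drc or Spag, or with Ift followed by digits, together with Foxj1, Akap14, Pifo, Mlf1, Nek5 and 1110017D15Rik. Of 64 such genes, 50 passed the filter used for every gene, a detection p-value under 0.05 on at least 3 of the 15 arrays, and they stand among 10194 genes that passed it. Each gene is given by the brightest of its probes, and 71 probes stand for the 50 genes. At the edge of the filter, Spag11b was detected on 3 arrays and was kept, and Spag16 was detected on 2 and was not. The other genes left out were Cfap300, Cfap36, Cfap61, Cfap74, Dnah11, Dnah5, Dnal1, Dnal4, Ift46, Rsph6a, Spag11a, Spag17 and Tekt3, each detected on at most 1 array. The Spag symbols stand for sperm-associated antigens, and 5 of those kept (Spag4, Spag5, Spag7, Spag9 and Spag11b) are not known as parts of the axoneme, so they are described apart from the rest.

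Whole lung of C57BL/6 mice aged 22 weeks was profiled on Illumina beadchips, with 1 array per mouse. The groups were homozygous mutants challenged with ovalbumin (OVA, a protein of hen's egg that serves as an allergen in mouse models of asthma; n = 4), challenged wild types (n = 4), unchallenged homozygous mutants (n = 3) and unchallenged wild types (n = 4). The mutated gene is Ifit2 by the series title, which interferon induces, and the questions of the design are what genotype and challenge each change. The sources used here give neither the kind of mutation nor how much ovalbumin was given, by which route and when.

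Motile cilia cover the multiciliated cells of the airway and beat to move mucus. Each is built around an axoneme, a ring of doublet microtubules around a central pair, on which outer and inner dynein arms generate force, while radial spokes and the nexin-dynein regulatory complex coordinate them. Tektins and other proteins line the inside of the doublets, intraflagellar transport carries parts in and out of the cilium, and the transcription factor Foxj1, together with RFX factors, switches on many of these genes. In the lung most axonemal genes mark multiciliated cells, whereas intraflagellar transport also serves the immotile primary cilia of many other cells. In RNA from whole lung, fewer ciliated cells and less of these RNAs per cell cannot be told apart.

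An array detected between 39.8% and 53.6% of 25697 probes, and challenged mutant 4 was both the dimmest array and the one with the fewest probes detected. The 2 probes for Ifit2 reached detection on each of 8 wild-type arrays and on 0 of 7 mutant arrays, at a log2 intensity of at most 5.98 in mutants and at least 6.45 in wild types. By the design text the mutants were male, but Xist, which is made from the silenced X in female cells, was detected by 2 probes on each of the 15 arrays, and the Y-linked genes Eif2s3y, Uty and Kdm5d were detected on 1, 2 and 0 arrays. Some lungs also differed in RNA of neighbouring tissue. Relative to the unchallenged wild-type mean, the median of 19 exocrine pancreas genes reached 9.02 on the log2 scale on 1 challenged mutant array and 7.46 on 1 challenged wild-type array, and that of 14 skeletal muscle genes ran between -3.35 and 2.69 over the arrays. The pancreas median went along with challenge. It was at least 0.12 in challenged mutants and 0.25 in challenged wild types, and at most 0.03 in unchallenged mutants and 0.04 in unchallenged wild types. The median of 6 thymus genes was 2.98 on challenged mutant 1 and 1.70 on challenged mutant 4, and at most 0.90 on every other array. The part of these differences in the results below was not tested. Challenged wild type 4 and challenged mutants 1 and 4 had been doubted in an earlier analysis of these data, and counts without them are given beside the main ones.

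Cilium and axoneme genes were lowest in lungs of challenged mutants. Of the 50, 34 to 38 were detected on challenged mutant arrays 1 to 3 and 28 on array 4, against 42 to 45 on challenged wild-type arrays, 44 to 49 on unchallenged mutant arrays and 45 to 47 on unchallenged wild-type arrays. Over all probes the share detected was 39.8% to 48.5%, 44.2% to 49.5%, 50.8% to 53.1% and 48.5% to 53.6% in the same groups, and since detection was part of how the genes were chosen, these counts are a description. Taken as the log2 difference from the unchallenged wild-type mean, the median of the 50 genes was -0.45, -0.19, -0.29 and -0.54 on the 4 challenged mutant arrays. It was 0.34, 0.07, 0.28 and -0.30 on the 4 challenged wild-type arrays, -0.02, -0.05 and -0.08 on the 3 unchallenged mutant arrays, and 0.02, 0.08, -0.06 and 0.00 on the 4 unchallenged wild-type arrays. The unchallenged groups overlapped each other, and every challenged mutant array lay below all of them. Challenged wild type 4 stood apart from the other 3 of its group and within the range of the challenged mutants.

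**Figure D1:**
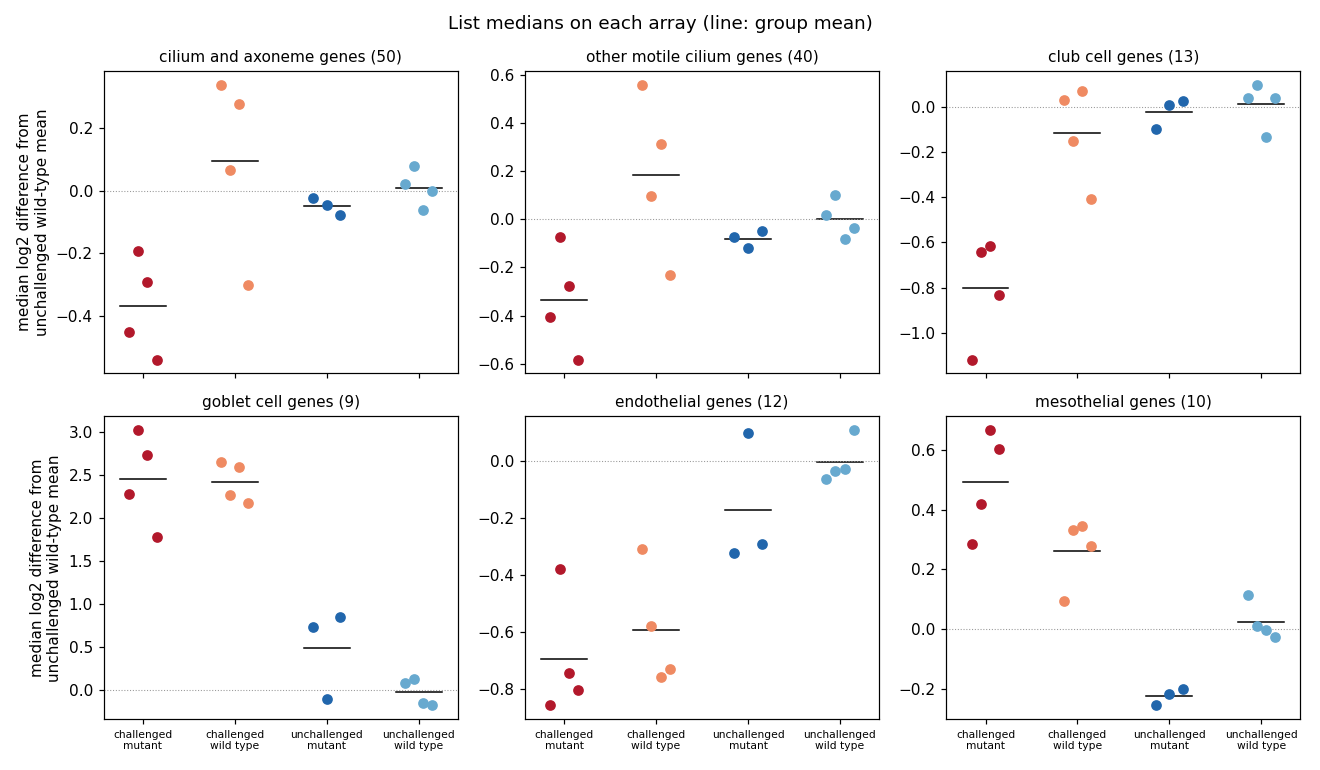
Median log2 difference from the unchallenged wild-type mean on each array (y axis) for 6 lists of genes, by group (x axis); each point is an array and each line a group mean. By group mean the cilium and axoneme genes and the other motile cilium genes lie lowest in challenged mutants. Challenged wild type 4, at -0.30 and -0.23, lies apart from the rest of its group. For the other motile cilium genes challenged mutant 2, at -0.07, lies within the range of the unchallenged arrays.

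Between challenged mutants and challenged wild types, 4 of the 50 genes passed (limma, adjusted p under 0.05), all lower in the mutants, namely Akap14, Nek5, Cfap206 and Pifo. Of the 14396 probes tested 0.146% were called lower and 0.0278% higher, 0.174% in all. Akap14, Nek5 and Pifo were members by name and Cfap206 by its symbol. Members were chosen with earlier results of these data known, so the count of 4 beside these shares is a description. Below 0 lay 43 of the 50 log2 differences, against 52.3% of all probes, and their median was -0.41, against -0.01 over all probes. At an unadjusted p under 0.05, 21 genes were lower and 2 higher, against 7.05% of all probes lower. The groups did not overlap for 7 genes, all lower in challenged mutants (Akap14, Nek5, Cfap206, Pifo, Mlf1, Ift43 and Spag9), against 2.24% of all probes lower and 1.92% higher without overlap. The count of 4 depended on single arrays. It was 15 without challenged wild type 4, 10 without challenged mutant 2, 2 without unchallenged wild type 1 or 2, and 1 without any of the other 11 arrays. Without the 3 doubted arrays together it was 4, but not the same 4, since Nek5 no longer passed. Calls over all probes moved too. They were 25 in the main fit, 192 without challenged wild type 4, 130 without challenged mutant 2 and 34 without the 3 doubted arrays.

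Set against unchallenged mutants, challenged mutants had 13 of the 50 genes lower (Akap14, Nek5, Cfap206, Spag6l, Cfap299, Spag9, 1110017D15Rik, Mlf1, Pifo, Ift43, Tekt1, Dnaic1 and Ift22) and 2 higher (Spag5 and Spag7). Over all probes 17% were called lower and 13.5% higher in that comparison, 30.5% in all, so that 15 of 50 genes called was near the background. Their median log2 difference was -0.33, against -0.02 over all probes. Leaving out the 3 doubted arrays left 10 lower and 2 higher, while calls over all probes went from 4392 to 3413. With median scaling in place of quantile normalization 35 were lower and 1 higher, at a median over all probes of -0.54 and with 7931 of 14396 probes called. With the mean signal of each array as a covariate 1 was lower and 1 higher, while the calls over all probes dropped to 190 of 14396.

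In wild types the challenge left 4 genes lower (Akap14, Nek5, Cfap20dc and Ift43) and 3 higher (Spag5, Spag7 and Cfap65) than in unchallenged wild types. The background was 12.7% of all probes lower and 9.8% higher, 22.5% in all, and the median of the 50 log2 differences was 0.08, against -0.01 over all probes. Without challenged wild type 4 the count of 7 became 12, without challenged mutant 4 it became 11, and without all 3 doubted arrays it was 20, of which 13 were higher and 7 lower. Calls over all probes were 3240 in the main fit and, in the same order, 3118, 4362 and 4670 in these fits. Array weights gave 6 higher and 8 lower, cyclic loess 5 higher and 4 lower, and median scaling 1 higher and 8 lower, which put the median of the 50 genes at -0.28 and that of all probes at -0.31. With these settings 5410, 3992 and 5158 of all probes were called.

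**Figure D2:**
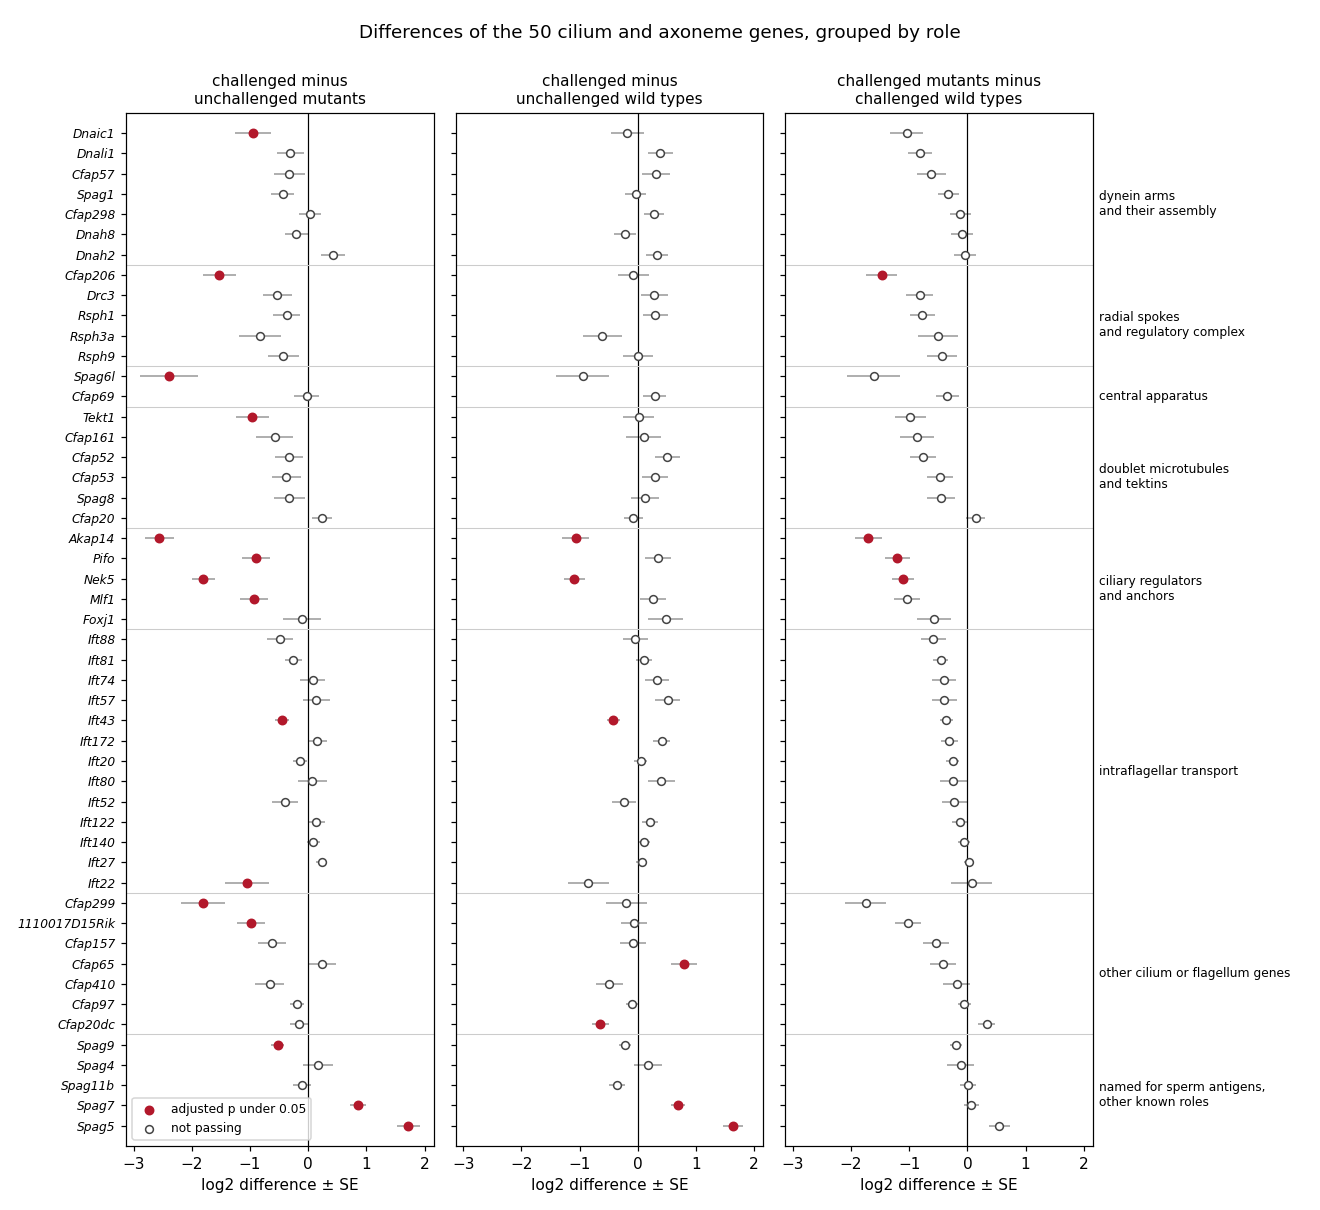
Log2 difference ± SE (x axis) of each of the 50 genes (rows, grouped by role) in 3 comparisons (panels); filled points passed an adjusted p of 0.05 in limma. In the right panel the axonemal genes lie mostly left of 0, and 4 of the 50, Akap14, Nek5, Cfap206 and Pifo, are filled.

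**Figure D3:**
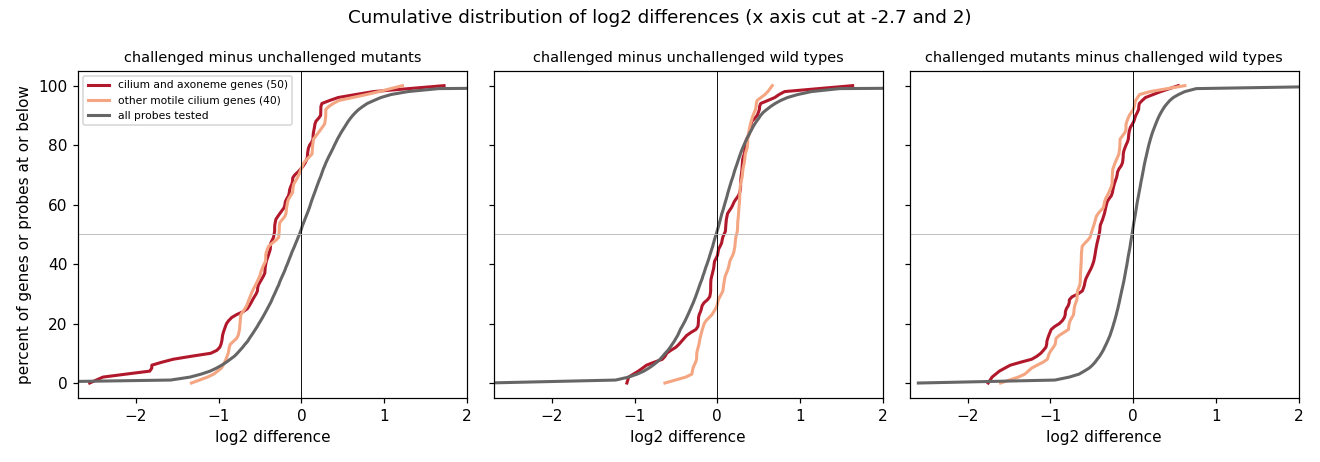
Cumulative percentage (y axis) of the 50 cilium and axoneme genes, 40 other motile cilium genes and all 14396 probes at or below a given log2 difference (x axis) in 3 comparisons. Between challenged mutants and challenged wild types the medians were -0.41, -0.51 and -0.01.

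Among ciliary regulators and anchors, Akap14 differed most. Akap14 encodes an anchor for protein kinase A found in axonemes of cilia and flagella. Its log2 intensity was 5.22, 5.74, 5.18 and 4.68 in challenged mutants, 7.14, 6.82, 7.17 and 6.48 in challenged wild types, 7.85, 7.85 and 7.59 in unchallenged mutants, and 7.63, 8.47, 8.00 and 7.80 in unchallenged wild types. It was detected on 0 of 4 challenged mutant arrays and on every other array, and the challenged mutants lay below all other mice. It was at least 1.93-fold lower in challenged mutants than in challenged wild types (log2 difference -1.70 ± 0.23, SE; limma adjusted p = 0.00644) and at least 3.50-fold lower than in unchallenged mutants (-2.56 ± 0.24; adjusted p = 5.01e-05). A bound of this kind sets the brighter group's mean against, on each array, the higher of the probe's own signal and the lowest signal of any detected probe. In challenged wild types Akap14 was 2.10-fold lower than in unchallenged wild types (-1.07 ± 0.23; adjusted p = 0.00486). The call between challenged groups held without any single array, at adjusted p = 0.00378 to adjusted p = 0.0410, and ended, at an adjusted p of 0.180, when only those 2 groups were fitted.

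Nek5, a kinase of the NIMA-related family that is active at centrosomes and in multiciliated cells, followed the same order of groups. It read 5.08, 5.66, 5.29 and 5.09 in challenged mutants and 6.41, 6.35, 6.46 and 6.32 in challenged wild types, against 7.18, 7.23 and 6.86 in unchallenged mutants and 6.98, 7.93, 7.59 and 7.40 in unchallenged wild types. It too was detected on 0 of 4 challenged mutant arrays and on all others. Nek5 was at least 1.35-fold lower in challenged mutants than in challenged wild types (-1.11 ± 0.18; limma adjusted p = 0.0352) and at least 2.19-fold lower than in unchallenged mutants (-1.81 ± 0.20; adjusted p = 7.92e-05). Challenged wild types were 2.13-fold below unchallenged ones (-1.09 ± 0.18; adjusted p = 0.00129).

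Pifo encodes pitchfork, a protein linked to disassembly of primary cilia and also present in motile cilia. Its signal was 7.31, 8.00, 7.84 and 7.28 in challenged mutants and 9.16, 8.60, 9.25 and 8.22 in challenged wild types, and 8.52, 8.44 and 8.56 in unchallenged mutants and 8.58, 8.55, 8.23 and 8.50 in unchallenged wild types. The lowest challenged wild type, array 4, was only just above the highest challenged mutant. Pifo was 2.30-fold lower in challenged mutants than in challenged wild types (-1.20 ± 0.22; limma adjusted p = 0.0424) and 1.87-fold lower than in unchallenged mutants (-0.90 ± 0.24; adjusted p = 0.0114), and between challenged and unchallenged wild types it differed by 0.35 ± 0.22 without passing.

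Cfap206, a protein that docks radial spokes to the doublets, was detected on 0 of 4 challenged mutant arrays and on all others. Its log2 intensity was 5.46, 5.63, 5.42 and 5.49 in challenged mutants, 7.87, 7.11, 6.94 and 5.99 in challenged wild types, 7.06, 6.96 and 7.06 in unchallenged mutants and 6.90, 7.27, 7.01 and 7.03 in unchallenged wild types. The challenged wild types spread over a wider range than any other group, with array 4 nearest to the mutants. Cfap206 was at least 2.03-fold lower in challenged mutants than in challenged wild types (-1.48 ± 0.27; limma adjusted p = 0.0424) and at least 2.10-fold lower than in unchallenged mutants (-1.53 ± 0.29; adjusted p = 0.00201). In wild types the challenge moved it by -0.08 ± 0.27, which did not pass.

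The calls of Nek5, Pifo and Cfap206 between challenged groups were close to the threshold. Leaving out 1 array at a time, the adjusted p ran from 0.00951 to 0.113 for Nek5, from 0.00729 to 0.142 for Pifo and from 0.000582 to 0.132 for Cfap206. The calls of Pifo and Cfap206 held only without challenged wild type 4 or challenged mutant 2 and ended without any of the other 13 arrays, and that of Nek5 held without those 2 and without unchallenged wild type 1 or 2 and ended without any of the other 11. The log2 differences stayed below 0 in all 15 of these fits, between -1.23 and -1.04 for Nek5, between -1.40 and -1.06 for Pifo and between -1.81 and -1.18 for Cfap206.

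**Figure D4:**
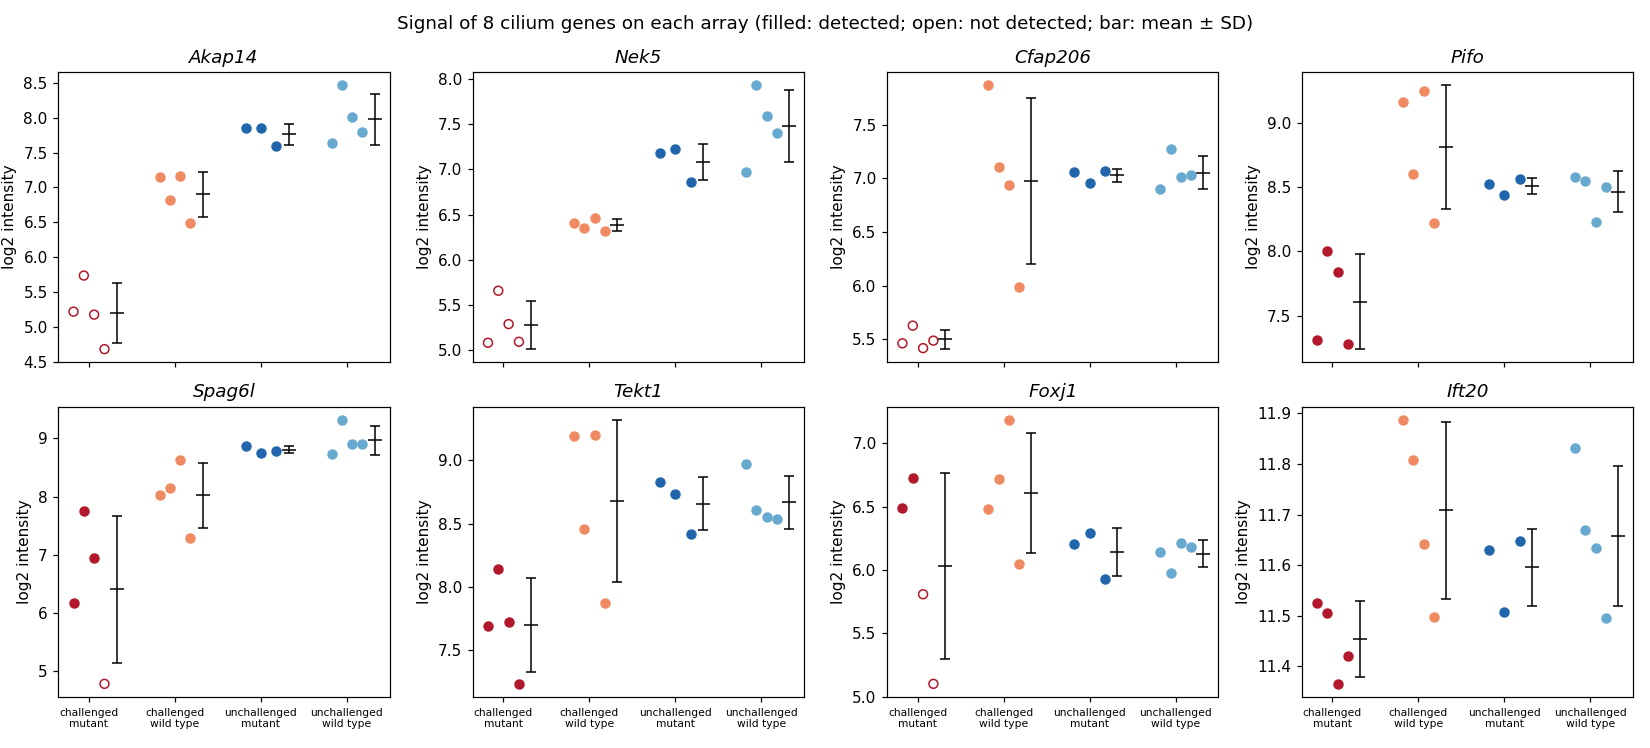
Log2 intensity (y axis) of 8 genes on each array, by group (x axis); filled points were detected at p under 0.05, open points were not, and bars are mean ± SD. Akap14, Nek5 and Cfap206 are open on all 4 challenged mutant arrays, and Pifo, between 7.28 and 8.00 there, lies below the 4 challenged wild types.

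The promoters of these 4 genes are shown because these genes were the ones called between challenged mutants and challenged wild types. Each sequence is the 250 bases before the annotated start site, 5′ to 3′ on the strand of the gene, from RefSeq on GRCm38.p6, and capitals mark letters of 3 motifs matched on either strand. The motifs were GTTGCC, one arm of the X-box read by RFX factors, GTNNCC followed by any pair of bases and GNNAAC, which spells both arms and can overlap the first, and GTAAACA, a site read by forkhead factors such as Foxj1. The regions are chrX:37168843-37169092 on the minus strand for Akap14, chr8:22125068-22125317 on the minus strand for Nek5, chr4:34730207-34730456 on the minus strand for Cfap206 and chr3:106001498-106001747 on the minus strand for Pifo, the one of its annotated starts that holds a match.
Akap14: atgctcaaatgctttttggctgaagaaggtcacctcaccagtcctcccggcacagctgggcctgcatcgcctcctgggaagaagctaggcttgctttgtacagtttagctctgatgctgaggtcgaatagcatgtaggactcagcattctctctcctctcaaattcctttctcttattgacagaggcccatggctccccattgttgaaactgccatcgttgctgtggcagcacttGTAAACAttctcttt
Nek5: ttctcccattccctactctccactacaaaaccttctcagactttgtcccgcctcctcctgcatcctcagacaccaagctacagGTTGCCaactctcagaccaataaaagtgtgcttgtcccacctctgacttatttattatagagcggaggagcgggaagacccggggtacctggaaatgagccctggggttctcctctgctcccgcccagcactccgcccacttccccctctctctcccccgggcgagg
Cfap206: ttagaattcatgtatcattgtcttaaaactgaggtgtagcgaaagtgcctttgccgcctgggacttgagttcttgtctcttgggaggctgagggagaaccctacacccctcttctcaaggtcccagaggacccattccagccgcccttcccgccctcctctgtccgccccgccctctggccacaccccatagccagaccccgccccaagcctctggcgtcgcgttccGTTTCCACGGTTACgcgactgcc
Pifo: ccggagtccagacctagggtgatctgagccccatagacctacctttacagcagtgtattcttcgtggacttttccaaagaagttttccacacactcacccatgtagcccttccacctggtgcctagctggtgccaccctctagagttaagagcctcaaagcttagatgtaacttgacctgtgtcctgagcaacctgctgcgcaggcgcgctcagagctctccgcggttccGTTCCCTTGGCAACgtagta
Akap14 held a forkhead match, Nek5 a GTTGCC match, Cfap206 a match of both arms, and Pifo a match of both arms that contains GTTGCC on the opposite strand. Such matches describe the letters only. Counting the 300 bases of each table entry, from 250 before the start to 50 after it, 38 of the 50 genes had 42 promoters, and GTTGCC stood in 16 of these (38.1%) against 12.5% of all 32851 promoters in the table. The motif with both arms stood in 8 (19%) against 1.98%, and 5 of those 8 also held GTTGCC. The forkhead motif stood in 3 (7.14%) against 3.65%. In 41 promoters of 35 other motile cilium genes the shares were 34.1%, 19.5% and 2.44%.

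Mlf1 encodes myeloid leukaemia factor 1, which is also made in multiciliated cells. It read 8.41, 8.86, 9.55 and 9.30 in challenged mutants and 9.84, 10.34, 9.91 and 10.20 in challenged wild types, against 9.72, 10.09 and 10.06 in unchallenged mutants and 9.42, 10.07, 9.96 and 9.78 in unchallenged wild types. Unlike most of the other genes, challenged wild type 4 was among the higher arrays. Mlf1 was 1.90-fold lower in challenged than in unchallenged mutants (-0.93 ± 0.24; limma adjusted p = 0.0109). That call was lost with unchallenged mutant 2 left out (adjusted p = 0.0529), and Mlf1 did not pass between challenged mutants and challenged wild types (-1.04 ± 0.22; adjusted p = 0.0746). A second Mlf1 probe gave -0.94 and passed (adjusted p = 0.0108) in challenged against unchallenged mutants, and it also passed between challenged groups (-1.26; adjusted p = 0.0398). Its promoter, chr3:67373847-67374096 on the plus strand, held a forkhead and a GTTGCC match close together, with the same marking as above.
Mlf1: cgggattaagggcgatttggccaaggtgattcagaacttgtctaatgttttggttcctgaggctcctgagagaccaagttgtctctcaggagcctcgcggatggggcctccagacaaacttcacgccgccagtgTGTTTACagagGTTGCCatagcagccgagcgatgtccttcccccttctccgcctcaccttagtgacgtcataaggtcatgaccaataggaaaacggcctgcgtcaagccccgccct
Foxj1, the transcription factor of motile ciliogenesis, showed no change that passed. It read 6.49, 6.72, 5.81 and 5.10 in challenged mutants and 6.48, 6.72, 7.18 and 6.05 in challenged wild types, against 6.20, 6.29 and 5.93 in unchallenged mutants and 6.14, 5.98, 6.21 and 6.18 in unchallenged wild types. Arrays 1 and 2 of the challenged mutants lay within the range of the challenged wild types, and arrays 3 and 4 were below it and not detected. The difference between challenged groups was -0.58 ± 0.30 (adjusted p = 0.445), with a 95% interval of -1.21 to 0.06, and that between challenged and unchallenged mutants was -0.11 ± 0.32, with a 95% interval of -0.80 to 0.58.

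Of 7 genes of the dynein arms and their assembly, 1 passed by its brightest probe, Dnaic1, an intermediate chain of the outer arm. Dnaic1 read 6.85, 7.55, 7.05 and 6.44 in challenged mutants and 8.35, 7.88, 8.68 and 7.16 in challenged wild types, against 7.71, 8.15 and 7.92 in unchallenged mutants and 8.35, 8.43, 7.97 and 8.04 in unchallenged wild types. All 4 challenged mutants lay below the 3 unchallenged mutants, and challenged wild type 4 lay among the challenged mutants. It was 1.94-fold lower in challenged than in unchallenged mutants (-0.95 ± 0.31; limma adjusted p = 0.0318), and this call ended without unchallenged mutant 2 or 3 or challenged mutant 1 or 4, with an adjusted p of up to 0.122. Between challenged mutants and challenged wild types Dnaic1 differed by -1.05 ± 0.29 (adjusted p = 0.139). Its other probe gave -0.63 (adjusted p = 0.0807) and -0.61 (adjusted p = 0.304) in these comparisons.

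Dnali1, a light intermediate chain of inner arms, read 7.72, 8.52, 8.12 and 7.89 in challenged mutants and 9.28, 8.91, 9.05 and 8.29 in challenged wild types, and lay between 8.32 and 8.48 in unchallenged mutants and between 8.26 and 8.72 in unchallenged wild types. Of the 4 challenged mutants, 3 were below every challenged wild type, and the difference of -0.82 ± 0.21 did not pass (adjusted p = 0.122). Dnah2, an inner arm heavy chain, read 6.36, 6.91, 6.70 and 7.20 in challenged mutants and 6.88, 6.71, 7.11 and 6.62 in challenged wild types, which overlapped throughout (-0.04 ± 0.19). The remaining genes of this class were Cfap57, Spag1, Cfap298 and Dnah8, with differences between challenged groups of -0.62 ± 0.24, -0.33 ± 0.18, -0.12 ± 0.18 and -0.09 ± 0.19. Cfap298 and Dnah8 were detected on only 4 of the 15 arrays each. All 7 differences were below 0, with a median of -0.33. A second Spag1 probe, detected on 8 arrays, was lower in challenged than in unchallenged mutants (-1.22; limma adjusted p = 0.00479). The brightest Spag1 probe gave -0.44 there and did not pass (adjusted p = 0.106).

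Besides Cfap206, the class of radial spokes and regulatory complex held Drc3, Rsph1, Rsph3a and Rsph9, and none of these 4 passed in any comparison. Rsph1, a component of the spoke head, read 9.64, 10.40, 10.11 and 10.02 in challenged mutants and 11.23, 10.64, 11.18 and 10.20 in challenged wild types, and lay between 10.30 and 10.57 in unchallenged mutants and between 10.34 and 10.66 in unchallenged wild types. Challenged wild types 1 and 3 were the 2 highest arrays of all 15. The difference between challenged groups was -0.77 ± 0.21 (limma adjusted p = 0.139). Drc3, of the nexin-dynein regulatory complex, read 8.27, 9.07, 8.52 and 8.07 in challenged mutants and 9.67, 9.19, 9.68 and 8.67 in challenged wild types, with unchallenged mutants between 8.89 and 9.11 and unchallenged wild types between 8.78 and 9.16. It differed by -0.82 ± 0.23 between challenged groups (adjusted p = 0.152), and its other 2 probes by -0.71 and -0.56. For Rsph9, a second spoke-head protein, and Rsph3a, of the spoke stalk, the differences were -0.44 ± 0.25 and -0.50 ± 0.34.

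Spag6l belongs to the central apparatus, the structure around the central pair. It read 6.16, 7.75, 6.95 and 4.78 in challenged mutants, with array 4 not detected, and 8.03, 8.14, 8.63 and 7.28 in challenged wild types, against 8.87, 8.75 and 8.79 in unchallenged mutants and 8.74, 9.32, 8.91 and 8.91 in unchallenged wild types. By this brightest probe all challenged mice of both genotypes lay below all unchallenged mice, and the challenged mutants spread over the widest range. Spag6l was lower in challenged than in unchallenged mutants (log2 difference -2.39 ± 0.50; limma adjusted p = 0.00335), by -1.85 without challenged mutant 4, and a second probe was lower as well (-1.01; adjusted p = 0.0246). The difference of -0.95 between challenged and unchallenged wild types did not pass (adjusted p = 0.152), and the second probe gave 0.06 there. Between challenged groups the difference of -1.61 ± 0.46 did not pass (adjusted p = 0.161), and challenged mutant 2 lay within the range of the wild types. The second probe did not pass there either (-1.24; adjusted p = 0.0874). Cfap69, also tied to the central apparatus, differed by -0.34 ± 0.20 between challenged groups and did not pass in any comparison.

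Tekt1, a tektin that forms filaments inside the doublets, was the one gene called among 6 for doublet microtubules and tektins. It read 7.69, 8.14, 7.72 and 7.23 in challenged mutants and 9.19, 8.46, 9.20 and 7.87 in challenged wild types, against 8.82, 8.73 and 8.42 in unchallenged mutants and 8.97, 8.60, 8.55 and 8.53 in unchallenged wild types. Challenged mutants were below all unchallenged mice, whereas challenged wild types lay both above and below them. Tekt1 was 1.95-fold lower in challenged than in unchallenged mutants (-0.96 ± 0.29; limma adjusted p = 0.0218), which no longer passed with unchallenged mutant 1 or 2 or challenged mutant 4 left out (adjusted p up to 0.0770), and it differed by -0.98 ± 0.27 between challenged groups (adjusted p = 0.138). Its other probe gave -0.82 (adjusted p = 0.112) and -1.20 (adjusted p = 0.166). Its promoter at chr11:72361883-72362132 on the minus strand, the one of its annotated starts that holds a match, is shown because GTTGCC stood on both strands near the start.
Tekt1: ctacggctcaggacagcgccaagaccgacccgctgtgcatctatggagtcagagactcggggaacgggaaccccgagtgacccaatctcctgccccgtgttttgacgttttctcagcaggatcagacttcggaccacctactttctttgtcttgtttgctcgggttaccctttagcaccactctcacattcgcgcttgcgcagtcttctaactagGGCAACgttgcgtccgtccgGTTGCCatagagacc
The other 5 genes encode proteins bound to the doublet wall. Cfap161, Cfap52, Cfap53 and Spag8 differed by -0.87 ± 0.30, -0.77 ± 0.22, -0.48 ± 0.23 and -0.45 ± 0.24 between challenged mutants and challenged wild types, and Cfap20 by 0.14 ± 0.17, and none passed in any comparison.

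Of 13 intraflagellar transport genes, 2 passed in challenged against unchallenged mutants, Ift43 and Ift22, both lower, and 0 passed between challenged groups, with 4 at an unadjusted p under 0.05. Over all probes 17% were called lower in the first comparison. In the second 0.174% passed and 12.7% had such an unadjusted p. Ift43, a subunit of the retrograde complex IFT-A, read 9.64, 10.02, 9.88 and 9.83 in challenged mutants and 10.37, 10.19, 10.24 and 10.04 in challenged wild types, against 10.20, 10.45 and 10.21 in unchallenged mutants and 10.71, 10.65, 10.59 and 10.59 in unchallenged wild types. In both genotypes the challenged mice lay below the unchallenged ones, and in both states the mutants lay below the lowest wild type. The challenge lowered it 1.36-fold in mutants (-0.44 ± 0.12; limma adjusted p = 0.0134) and 1.34-fold in wild types (-0.42 ± 0.11; adjusted p = 0.0148). With unchallenged mutant 2 left out the call in mutants was lost (adjusted p = 0.0811). Ift43 did not pass between genotypes, with -0.37 ± 0.11 under challenge (adjusted p = 0.183) and -0.35 ± 0.12 without it.

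Ift22, a small GTPase-like subunit of IFT-B named after its values were seen, read 6.00, 6.79, 5.63 and 4.84 in challenged mutants and 5.43, 6.29, 5.24 and 6.01 in challenged wild types, against 6.81, 6.98 and 6.81 in unchallenged mutants and 5.91, 6.96, 6.61 and 6.89 in unchallenged wild types. It was detected on 2 of 4 arrays in each challenged group. Its log2 difference of -1.05 ± 0.38 between challenged and unchallenged mutants passed narrowly (adjusted p = 0.0495), and the call held in 3 of the 15 fits that left out 1 array, those without unchallenged wild type 1, challenged wild type 2 or challenged mutant 2. Its direction turned to 0.71 with the mean signal of each array as a covariate. The difference between challenged groups was 0.07 ± 0.35.

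Ift20, which carries membrane proteins from the Golgi towards the cilium, read 11.52, 11.51, 11.36 and 11.42 in challenged mutants and 11.89, 11.81, 11.64 and 11.50 in challenged wild types, and lay between 11.51 and 11.65 in unchallenged mutants and between 11.49 and 11.83 in unchallenged wild types. The difference between challenged groups, -0.25 ± 0.11, did not pass (adjusted p = 0.355). Over the 13 genes this difference had a median of -0.25 and ran from -0.59 ± 0.21 for Ift88 to 0.07 ± 0.35 for Ift22. Below 0 lay 11 of the 13, against 52.3% of all probes. Between unchallenged mutants and unchallenged wild types 11 of the 13 lay below 0 as well, with a median of -0.06, against 52.6% of all probes. The challenge in mutants gave a median of 0.07 and in wild types of 0.10. Probes of the same gene did not always move alike. A second Ift172 probe was lower in challenged than in unchallenged mutants (-0.95; adjusted p = 0.0134) while the brightest gave 0.15 (adjusted p = 0.480), and a second Ift140 probe was higher (0.52; adjusted p = 0.0334) while the brightest gave 0.09 (adjusted p = 0.578). Another Ift81 probe was lower in the same comparison (-1.83; adjusted p = 0.0115) while the brightest gave -0.26 (adjusted p = 0.191).

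Among 7 other genes named for cilia or flagella, Cfap299 and 1110017D15Rik were lower in challenged than in unchallenged mutants. Cfap299, known from sperm flagellum formation, read 5.54, 6.95, 5.89 and 5.47 in challenged mutants, where it was detected on array 2 alone, and 8.45, 7.49, 8.20 and 6.71 in challenged wild types, against 7.97, 7.57 and 7.77 in unchallenged mutants and 7.87, 8.06, 7.90 and 7.79 in unchallenged wild types. It was lower in challenged than in unchallenged mutants (log2 difference -1.81 ± 0.38; limma adjusted p = 0.00347), a size that rests in part on signals not above background, and narrowly missed the threshold between challenged groups (-1.75 ± 0.35; adjusted p = 0.0625), where challenged wild type 4 lay below challenged mutant 2. 1110017D15Rik read 9.03, 9.88, 9.58 and 8.98 in challenged mutants and 10.76, 10.31, 10.67 and 9.78 in challenged wild types, against 10.33, 10.39 and 10.31 in unchallenged mutants and 10.52, 10.61, 10.29 and 10.34 in unchallenged wild types. It was 1.97-fold lower in challenged than in unchallenged mutants (-0.98 ± 0.24; adjusted p = 0.00808), and its other 2 probes were called lower too (-1.13 and -0.98). Between challenged groups it differed by -1.01 ± 0.22 (adjusted p = 0.0746).

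Cfap65 and Cfap20dc passed with the challenge in wild types, in opposite directions, and did not pass in mutants. Cfap65, needed for sperm flagella, read 8.78, 8.64, 9.58 and 8.25 in challenged wild types and 8.01, 7.91, 8.00 and 8.13 in unchallenged wild types, a 1.74-fold increase (0.80 ± 0.23; limma adjusted p = 0.0230) that did not pass without unchallenged wild type 2 or 3 (adjusted p up to 0.0612) or with median scaling. In mutants it read 7.94, 8.74, 8.45 and 8.44 with challenge and 8.04, 8.17 and 8.27 without (0.23 ± 0.25). Cfap20dc read 5.93, 6.03, 5.64 and 5.49 in challenged wild types and 6.56, 6.32, 6.28 and 6.52 in unchallenged wild types, lower with challenge (log2 difference -0.65 ± 0.15; adjusted p = 0.00767) but detected on 1 of 4 challenged and 4 of 4 unchallenged wild-type arrays, and 5.93, 6.10, 6.35 and 6.05 in challenged mutants against 5.97, 6.40 and 6.40 in unchallenged mutants (-0.15 ± 0.16). The difference of these challenge effects between genotypes did not pass for either gene (smallest adjusted p over the 50 genes 0.950). Cfap97, Cfap157 and Cfap410 did not pass in any comparison; Cfap97, the brightest of the Cfap genes, stayed between 9.25 and 9.45 in challenged mutants, 9.26 and 9.70 in challenged wild types, 9.46 and 9.66 in unchallenged mutants and 9.44 and 9.59 in unchallenged wild types.

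Of the 5 Spag genes with other known roles, Spag5 and Spag7 rose and Spag9 fell. Spag5, also called astrin, is a protein of the mitotic spindle. It read 8.64, 8.27, 8.23 and 8.60 in challenged mutants and 7.61, 8.29, 7.72 and 7.94 in challenged wild types, against 6.86, 6.30 and 6.97 in unchallenged mutants and 6.38, 6.04, 6.24 and 6.35 in unchallenged wild types. Every challenged mouse lay above every unchallenged one. The rise was 3.30-fold in mutants (1.72 ± 0.19; limma adjusted p = 9.26e-05) and 3.11-fold in wild types (1.64 ± 0.18; adjusted p = 6.70e-05), while a second Spag5 probe, detected on 3 arrays, gave 0.00 and -0.03. Of 12 genes of mitosis tested, 10 were higher in challenged than in unchallenged mutants and 9 in challenged than in unchallenged wild types, against 13.5% and 9.8% of all probes.

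Spag7 read 9.92, 9.71, 9.92 and 9.88 in challenged mutants and 9.60, 9.72, 9.97 and 9.87 in challenged wild types, against 9.09, 9.01 and 8.91 in unchallenged mutants and 9.42, 8.97, 8.90 and 9.10 in unchallenged wild types. It rose 1.80-fold in mutants (0.85 ± 0.14; adjusted p = 0.000769) and 1.61-fold in wild types (0.69 ± 0.13; adjusted p = 0.00216), calls that ended with median scaling. Spag9, a scaffold of kinase signalling and motor transport, read 9.68, 9.70, 9.68 and 9.75 in challenged mutants and 9.97, 9.83, 10.04 and 9.75 in challenged wild types, against 10.11, 10.21 and 10.37 in unchallenged mutants and 10.01, 10.08, 10.11 and 10.29 in unchallenged wild types. It was 1.44-fold lower in challenged than in unchallenged mutants (-0.53 ± 0.11; adjusted p = 0.00387), while its other 2 probes gave 0.20 and 0.12 and did not pass. Spag4, of the nuclear envelope, and Spag11b, a defensin-like gene of the epididymis, did not pass in any comparison.

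Without challenge, genotype made no difference that passed. Unchallenged mutants against unchallenged wild types had 0 of the 50 genes called in limma, with 2 at an unadjusted p under 0.05, Ift43 lower and Spag5 higher, against 0.0139% of all probes called and 2.6% at that unadjusted p. The median of the 50 log2 differences was -0.06, and they ran from -0.39 to 0.46. Below 0 lay 35 of the 50, against 52.6% of all probes. Whether the challenge acted differently on the genotypes was tested as the interaction. In it 0 of the 50 genes and 0% of all probes were called, and 13 genes had an unadjusted p under 0.05, 12 of them with a more negative challenge effect in mutants, against 4.1% of all probes, and 2.39% with a negative difference. The largest in size were Akap14, at -1.49 ± 0.33 (95% interval -2.20 to -0.77), and Cfap299, at -1.61 ± 0.52 (95% interval -2.72 to -0.51), and the median of the 50 was -0.37, against 0.00 over all probes. The challenge comparisons of each genotype share no mice, whereas the comparison of challenged groups shares mice with both.

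A list of other motile cilium genes, outside the naming rule, held 74 genes, of which 49 were on the array and 40 were tested. Between challenged mutants and challenged wild types 0 of the 40 passed in limma, 23 were lower and 1 higher at an unadjusted p under 0.05, 36 lay below 0 and the median was -0.51. Over all probes 0.174% passed, 7.05% were lower at that unadjusted p, 52.3% lay below 0 and the median was -0.01. The smallest adjusted p of the 40 was 0.0549, for Nme5, a radial spoke protein named after its values were seen (-1.33 ± 0.25). In challenged against unchallenged mutants 12 were lower and 2 higher, against 17% and 13.5% of all probes, so that the number called was near the background, and the median was -0.27. By smallest p these were Ulk4, a kinase-like protein (1.22 ± 0.24, higher; adjusted p = 0.00250), Gas8, of the nexin-dynein regulatory complex (-0.75 ± 0.18; adjusted p = 0.00669), Ccdc65, of the same complex (0.86 ± 0.21, higher; adjusted p = 0.00728) and Mycbpap (-1.08 ± 0.31; adjusted p = 0.0186). In wild types the challenge left 0 lower and 2 higher, Ccdc65 (0.66) and Nme7 (0.47), against 12.7% and 9.8% of all probes, and the median was 0.23. On single arrays the list's median was -0.40, -0.07, -0.28 and -0.58 in challenged mutants and 0.56, 0.10, 0.32 and -0.23 in challenged wild types. It was -0.12 to -0.05 in unchallenged mutants and -0.08 to 0.10 in unchallenged wild types, so challenged mutant 2 lay within the range of unchallenged mice. Without challenge 30 of the 40 differences between genotypes lay below 0, with a median of -0.08, against 52.6% of all probes below 0.

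Of regulators of multiciliated cell formation, such as RFX factors, cyclin O and Myb, 16 were tested. Between challenged groups 0 passed and 4 had an unadjusted p under 0.05, with a median of 0.01. Over all probes 0.174% passed and 12.7% had such an unadjusted p, with a median of -0.01. Fank1 was lower in challenged than in unchallenged mutants (-1.28; limma adjusted p = 0.00878), and Ccno (0.78; adjusted p = 0.0398) and Foxn4 (0.46; adjusted p = 0.0471) were higher in challenged than in unchallenged wild types. With challenge 6.25% of the 16 were called in mutants and 12.5% in wild types, against 30.5% and 22.5% of all probes. Genes of the BBSome and transition zone, which serve primary cilia, had 20 tested. Between challenged groups 0 passed, 10 had an unadjusted p under 0.05, 19 lay below 0 and the median was -0.35. Over all probes 12.7% had such an unadjusted p, 52.3% lay below 0 and the median was -0.01. Without challenge, too, 19 of the 20 lay below 0 between mutants and wild types, with a median of -0.13. There 52.6% of all probes lay below 0, so the lean towards lower values in mutants was not confined to challenged lungs. In challenged against unchallenged mutants 5 were lower (Ttc8, Bbs9, Arl3, Tmem216 and Nphp4) and 1 higher (Kif17), and in challenged against unchallenged wild types 3 were lower (Ttc8, Bbs9 and Arl3) and 1 higher (Tctn2). These counts of 6 and 4 of 20 were near the 30.5% and 22.5% of all probes called in the 2 comparisons.

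Genes of club cells, the secretory cells beside ciliated cells in the airway, also stood lowest in challenged mutants. Of 15 genes listed, 13 were on the array and all 13 were tested, and each was detected on at least 12 of the 15 arrays. Between challenged mutants and challenged wild types 2 were lower, Hp (-0.93 ± 0.15; limma adjusted p = 0.0352) and Cbr2 (-0.99 ± 0.18; adjusted p = 0.0424), against 0.146% of all probes. Both were named after their values were seen, and whether their calls held without single arrays was not tested. Calls over all probes in this comparison were 25 in the main fit and 7 to 192 without 1 array. Scgb1a1, the defining secretoglobin, had mean log2 intensities of 15.38 and 15.40 in these groups, close to the top of the arrays' range, where a difference may not register. The list's summed linear intensity was 117700 to 141600 in challenged mutants, 132600 to 167500 in challenged wild types, 158300 to 176100 in unchallenged mutants and 159100 to 174700 in unchallenged wild types. In challenged against unchallenged mutants 7 were lower and 1 higher, against 17% and 13.5% of all probes, and in wild types 4 were lower and 2 higher, against 12.7% and 9.8%. The part of club cell genes in the results above was not tested.

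Other cell types moved with the challenge in both genotypes. Of 9 goblet cell genes tested, 7 were higher in challenged than in unchallenged mutants and 9 in challenged than in unchallenged wild types, with a summed intensity of 26560 to 40040 in challenged mutants, 25220 to 44450 in challenged wild types, 4154 to 12600 in unchallenged mutants and 3672 to 6234 in unchallenged wild types. Of 12 endothelial genes 7 were lower with challenge in each genotype, and of 10 mesothelial genes 6 were higher in challenged mutants and 2 in challenged wild types. Of 9 alveolar type 1 genes 6 were lower and 1 higher with challenge in mutants, and 3 lower and 1 higher in wild types. Their median also reached lowest in challenged mutants, at -0.71 to -0.43, against -0.58 to -0.20 in challenged wild types and -0.21 to 0.06 in unchallenged mutants. Of 13 alveolar type 2 genes 4 were lower with challenge in mutants, and 3 lower and 1 higher in wild types. Of all probes, the challenge raised 13.5% and lowered 17% in mutants, and raised 9.8% and lowered 12.7% in wild types. Between challenged groups 0 goblet, endothelial, mesothelial and alveolar type 1 and 2 genes passed in limma, against 0.174% of all probes. Of 18 testis and sperm genes on the array, 4 were tested, and their summed intensity was 187.4 to 249 in challenged mutants, 187.8 to 226.8 in challenged wild types, 164.4 to 180 in unchallenged mutants and 171.2 to 195.5 in unchallenged wild types. How these shifts in cell makeup bear on the cilium genes was not tested.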

How the data were processed

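RNA of 15 lungs was measured on Illumina beadchips. The deposited table gives, by the authors' file headers, per probe and array an average signal intensity with its detection p-value, exported from GenomeStudio 2011.1 per the submitters' processing notes and not normalized. The authors' deposited series matrix of processed values served as an alternative; its normalization is not stated, and its values were floored at 16 before log2. Genes were named from the platform annotation, in which 23978 of 25697 probes have 1 symbol.

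The neqc function of limma 3.58.1 (R 4.3.3; offset 16; negative controls inferred from the detection p-values) corrected the background, quantile-normalized the arrays and gave log2 values. Probes detected at p under 0.05 on at least 3 arrays (14396) were fitted with 1 mean per group over all 15 arrays (lmFit, eBayes; two-sided; 11 residual degrees of freedom), with Benjamini-Hochberg adjustment over all probes and a threshold of 0.05; the code was tested on simulated data. The brightest probe stands for a gene. Arrays carry no depth, so their number limits the precision. Each array is a separate mouse.

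Same-numbered animals of different groups did not deviate together throughout (correlations of -0.0853 to 0.499), so replicate numbers were not taken to pair them. Values are given for every array for Foxj1, Akap14, Pifo, Mlf1, Nek5 and 1110017D15Rik, for called genes among the 10 smallest p-values of a comparison and for the brightest gene of each symbol family; at most 4 genes are named per further list and comparison. Ift22, Nme5, Hp, Cbr2 and the genes given only by a difference were named after their values were seen. Members, lists and motif spellings were chosen with earlier results of these data known. Alternatives changed background correction, scaling, filter, weights, samples fitted and covariates.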

Additional observations from a re-analysis of the deposited data

Results flagged for a closer look

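Within groups of 4 arrays, a value was set apart where its gap to the nearest array took up an unusually large part of the group's range by Dixon's criterion. This held for 6 of 153 sets of 4 arrays examined, 3.92%, which were those of each of the 50 genes and of their median in the 3 groups of 4, where chance gives about 1 in 20. Tekt1 in unchallenged wild type 1 read 8.97 and was the highest of its group, the next being 8.60. Ift88 (6.54) and Ift122 (6.63) were lowest in challenged mutant 1, below 7.14 and 7.01 on the next arrays. Ift27 was highest in challenged mutant 2, at 9.25 against 9.08. Spag8 in challenged wild type 4 (5.23) and Dnah8 in unchallenged wild type 2 (5.29) were lowest and not detected there.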

How the results depend on the processing

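The array number, 3 or 4 mice a group, limits every call. Between challenged mutants and challenged wild types the 4 genes called became 8 with median scaling, 2 without background correction, with an offset of 50, without the filter, with array weights or with a replicate block, 1 with cyclic loess or with mean signal as a covariate, and 0 when only these groups were fitted (18 at an unadjusted p under 0.05 in limma). Leaving out 1 array gave 1 to 15. Calls over all probes were 25 in the main fit, 73 with median scaling, 2 when only these groups were fitted and 7 to 192 without 1 array. The Akap14 call held in 27 of 28 alternatives, that of Nek5 in 9, and those of Pifo and Cfap206 in 8 each. In challenged against unchallenged mutants the 15 called became 36 with median scaling, 2 with mean signal as a covariate and 23 counting every tested probe, and 10 to 18 without 1 array. Ift22 reversed to 0.71 with mean signal as a covariate. In challenged against unchallenged wild types the 7 called became 14 with array weights, 2 with mean signal as a covariate and 20 without challenged wild type 4 and challenged mutants 1 and 4, and 6 to 12 without 1 array. The 3240 calls over all probes became 5410 with array weights, 964 with mean signal as a covariate and 4670 without those doubted arrays. Without challenge and in the interaction 0 genes passed in any alternative, and leaving out 1 array gave 0 to 0. The median log2 difference between challenged groups stayed between -0.53 and -0.23. The replicate numbers share only a number, and as a block they left 14, 8 and 2 called in these comparisons. The cause of these changes was not tested.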
